A study of Danio rerio with 16 samples.

Results

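Skin ionocytes are represented here by 10 genes, chosen by symbol from the expression table: foxi3a, foxi3b, gcm2, slc9a3.2, ca15a, ca2, trpv6, slc12a10.2, clcn2c and atp1b1b. They are 10 of the 32513 rows of that table. The rule that picks their rows uses symbols and no measured value, but the genes were chosen with earlier results of these data known. RNA of whole zebrafish (Danio rerio) was sequenced in 16 libraries. The exposed embryos received radiofrequency radiation (RFR, named 5G in the labels) at a frequency of 3.5 GHz and a power of about 30 dBm between 6 and 48 hours post fertilization (hpf), and the controls received none. The groups were RFR at 120 hpf, control at 120 hpf, RFR at 48 hpf and control at 48 hpf, with 4 libraries in each. RFR had therefore just ended at 48 hpf and had ended 72 h earlier at 120 hpf. The labels name no strain, no sex, and no number of embryos per library. Nor do they give the parents or clutch behind a replicate. A p-value here is thus read against the scatter of libraries, and that scatter can be technical.

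Ionocytes are single cells set between the keratinocytes of the embryonic skin, where they take up or release ions before the gills work. In zebrafish they come in several types. Proton-secreting cells pump acid out through a V-type ATPase and a sodium/proton exchanger, cells rich in Na,K-ATPase take up calcium through an epithelial calcium channel, and cells with a sodium-chloride cotransporter take up chloride. A further type secretes potassium through ROMK channels. The forkhead factors foxi3a and foxi3b act early in the precursors, which are singled out from epidermal stem cells by Notch signalling, and gcm2 is needed for the proton-secreting type.

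Reads kept by the authors' filter numbered 39603976 to 49232542 per library. The mapped share was 66.19 to 67.58% for larvae of 120 hpf and 69.37 to 71.78% for embryos of 48 hpf. Ribosomal RNA made up 3.2% of reads in control 120 hpf replicate 1 and 0.15 to 0.30% elsewhere. Raw read totals were the same in all libraries numbered 1 to 3 and differed in every replicate 4, which is 1 library of each group. Expression is given as FPKM, a fragment count corrected for the length of the transcript and for how many fragments the library mapped. Differences between groups are log2 fold changes of FPKM + 0.5, tested with limma over 23026 genes, and a gene was called at a Benjamini-Hochberg adjusted p under 0.05. All 10 ionocyte genes passed the filter on low values. For slc9a3.2 this was owed to the 120 hpf libraries, since every 48 hpf library lay under 0.5 FPKM. In RNA of whole animals, fewer cells of a type and less RNA per cell cannot be told apart.

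RFR changed no ionocyte gene past the threshold at either stage. Between the stages 6 genes moved alike: slc9a3.2, trpv6, slc12a10.2, clcn2c, atp1b1b and the regulator gcm2 were higher at 120 than at 48 hpf after RFR and in controls alike. The carbonic anhydrase ca15a passed the threshold after RFR only, by a narrow margin, and the precursor factors foxi3a and foxi3b and the carbonic anhydrase ca2 passed it in neither. For RFR against control, 0 of 10 were called at 120 hpf, where 0% of all tested genes were called, and 0 of 10 at 48 hpf, where 0.00434% were. At an unadjusted p under 0.05, 1 of 10 passed at 120 hpf, with 952 of all 23026 tested genes, and 0 of 10 passed at 48 hpf, with 2180 of them. Without RFR 48 hpf replicate 1, 389 genes were called at 48 hpf, none of them among these 10. The lists described further on held 6 of the 389, namely atp6ap1a, atp6v0a1b, atp6v0cb, rlbp1a and slc1a2b, which rose, and dld, which fell. The difference between the RFR effects at 120 and 48 hpf was called for 0 of 10 ionocyte genes and 0% of all genes. Of 120 against 48 hpf, 7 of 10 rose after RFR, where 36.1% of all genes rose and 29.2% fell, and 6 of 10 rose in controls, where 38.3% rose and 27.9% fell. No ionocyte gene fell in either, though foxi3a and ca2 passed the threshold as falls in controls under some other settings. Among the rises, slc9a3.2 passed the filter on low values only through 120 hpf libraries, so for it the filter itself favoured a rise. Under quantile normalization the direction of the calls over all genes shifted, with 6312 rises among 15133 calls after RFR (8305 of 15032 without it) and 6336 among 15242 in controls (8811 of 15227). The same 6 ionocyte genes rose under every one of the 21 settings run in each comparison.

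**Figure D1:**
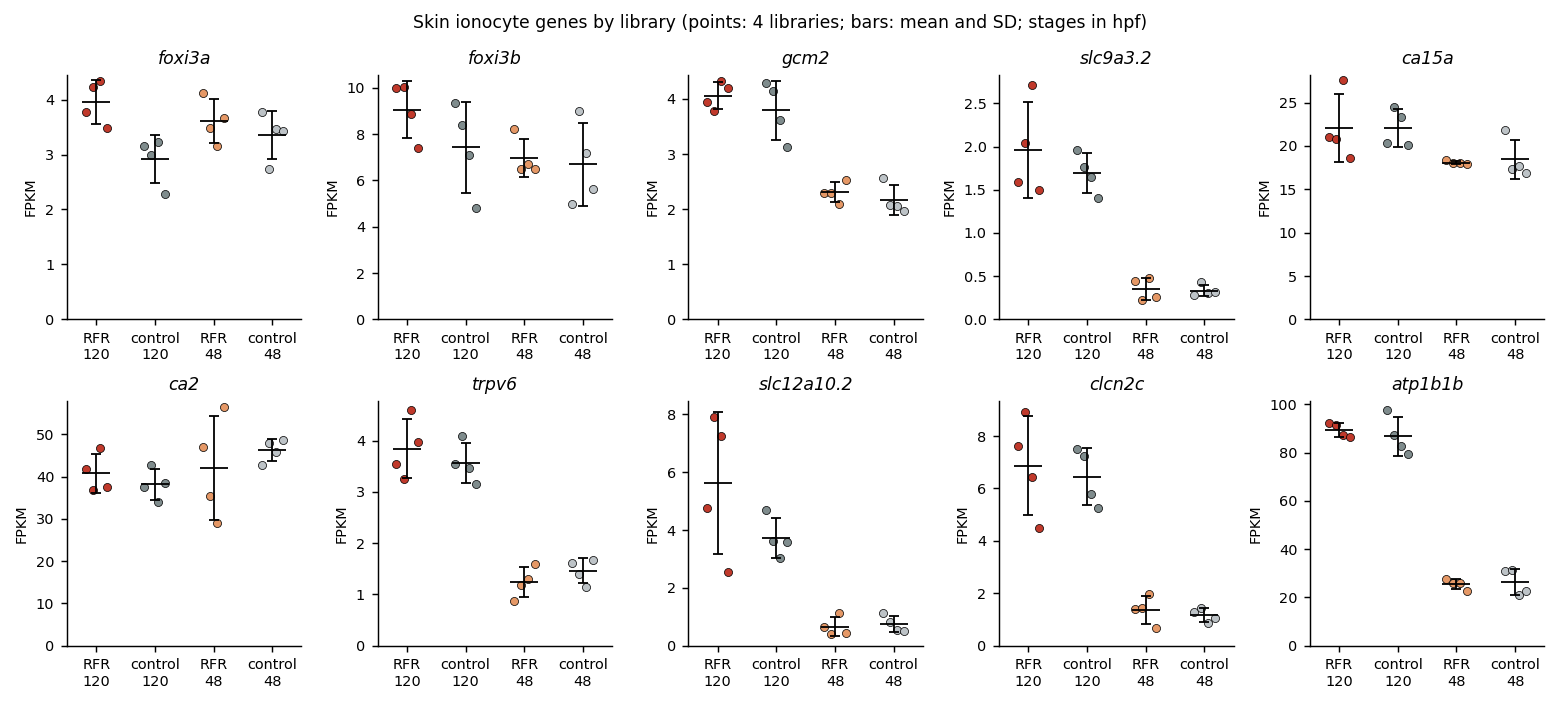
FPKM (vertical axis, from 0) of the 10 skin ionocyte genes in each library; points are the 4 libraries of a group, and bars give the mean and SD. At 120 hpf both groups of gcm2, slc9a3.2, trpv6, slc12a10.2, clcn2c and atp1b1b lie above both groups at 48 hpf, while RFR and control libraries overlap at each stage except for foxi3a at 120 hpf.

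The regulators come first in the lineage. foxi3a, a forkhead factor of ionocyte precursors, had 3.77, 4.22, 4.34 and 3.48 FPKM in the RFR 120 hpf libraries, against 3.15, 3, 3.23 and 2.28 FPKM in the 120 hpf controls. Every RFR library lay above every control, the lowest RFR library by little. All RFR libraries lay above all controls for 0.886% of tested genes at 120 hpf and all below for 1.22%, and foxi3a was the only one of the 10 ionocyte genes with such groups. At 48 hpf 4.27% of genes had such separate groups in either direction, and 0 of 10 ionocyte genes did. Its log2 fold change was 0.39 ± 0.120 (SE, 95% CI 0.133 to 0.643, unadjusted p = 0.00528), which ranked 133 among the tested genes by p and had an adjusted p of 0.909 (limma). With replicates 1 to 3 alone it was 0.34, and over all settings run it lay between 0.292 and 0.440 with adjusted p-values of 0.664 to 1.

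At 48 hpf the foxi3a libraries overlapped, with 4.12, 3.49, 3.15 and 3.66 FPKM after RFR against 3.78, 2.74, 3.46 and 3.42 FPKM in controls. The log2 fold change there was 0.09 ± 0.120, and the difference between the effects at 120 and 48 hpf was 0.29 ± 0.170 (adjusted p = 0.783, limma). The test did not separate the effects at both stages. Between stages, the log2 change from 48 hpf was 0.12 (adjusted p = 0.405) in RFR larvae and -0.18 (adjusted p = 0.211) in control larvae. The control value passed the threshold under quantile normalization (-0.53, adjusted p = 0.000768) and under median-ratio scaling (-0.28, adjusted p = 0.0394), and over all settings its adjusted p ran from 0.000768 to 0.680.

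foxi3b, its close relative, had 9.97, 10.02, 8.85 and 7.39 FPKM in RFR larvae at 120 hpf, against 9.36, 8.40, 7.11 and 4.81 FPKM in control larvae. The groups overlapped, and control replicate 4 was the lowest of all 16 libraries. At 48 hpf the values were 8.20, 6.50, 6.69 and 6.51 FPKM after RFR and 4.96, 9, 7.20 and 5.62 FPKM in controls, whose spread held all 4 RFR values. The log2 fold change was 0.30 (95% CI -0.0996 to 0.698) at 120 hpf and 0.08 (95% CI -0.317 to 0.481) at 48 hpf. The ratio of foxi3b to foxi3a averaged 2.30 ± 0.273 in RFR larvae, against 2.52 ± 0.429 in control larvae (SD, n = 4 libraries each). In embryos at 48 hpf the ratio was 1.94 ± 0.151 after RFR and 2.08 ± 0.862 in controls, so all 4 groups overlapped.

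gcm2, the factor of proton-secreting cells, had 3.94, 3.78, 4.32 and 4.20 FPKM in RFR larvae at 120 hpf and 4.29, 4.14, 3.61 and 3.13 FPKM in control larvae. In 48 hpf embryos it had 2.30, 2.30, 2.09 and 2.53 FPKM after RFR and 2.56, 2.07, 2.06 and 1.96 FPKM in controls. No 48 hpf library reached the lowest 120 hpf library, while RFR and control overlapped at both stages. gcm2 rose between the stages by a log2 change of 0.70 (adjusted p = 2.22e-05) after RFR and 0.69 (adjusted p = 2.75e-05) in controls. Its RFR effect was 0.09 (95% CI -0.131 to 0.319) at 120 hpf and 0.08 (95% CI -0.147 to 0.303) at 48 hpf, the narrowest intervals of the 10 genes.

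Of the proton-secreting cell's transport genes, slc9a3.2 encodes the apical sodium/proton exchanger. It had the lowest mean of the 10 genes over all libraries, 1.08 FPKM. In RFR larvae at 120 hpf it had 1.59, 2.04, 2.71 and 1.5 FPKM, against 1.96, 1.76, 1.65 and 1.40 FPKM in control larvae. At 48 hpf its values were 0.45, 0.22, 0.48 and 0.26 FPKM after RFR and 0.28, 0.43, 0.30 and 0.32 FPKM in controls. RFR and control overlapped at each stage, and the stages stood apart. slc9a3.2 rose between stages by a log2 change of 1.52 (adjusted p = 4.32e-07) after RFR and 1.39 (adjusted p = 1.12e-06) in controls. The added 0.5 FPKM makes these values smaller than the ratio of the FPKM themselves. slc9a3.2 passed the filter on low values only through 120 hpf libraries, so the filter itself favoured this rise. Its neighbour on the chromosome in the NCBI gene table is slc9a3.1, a close copy, and reads shared between them could affect both.

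The carbonic anhydrases ca15a and ca2 are also counted here among the genes of proton-secreting cells. ca15a, bound to the outer membrane, had 21.01, 20.84, 27.65 and 18.55 FPKM in RFR larvae, against 20.33, 24.50, 23.36 and 20.15 FPKM in control larvae. At 48 hpf it had 18.39, 18.08, 18 and 17.86 FPKM after RFR, the tightest set of any ionocyte gene relative to its level, against 21.83, 17.37, 17.68 and 16.89 FPKM in controls. Its log2 change between stages was 0.26 in RFR libraries (adjusted p = 0.0472) and 0.26 in controls (adjusted p = 0.0511), so the call in 1 of the 2 comparisons does not separate them. The call after RFR was lost under 5 other settings, with adjusted p-values of 0.0596 to 0.138, and without any one of 7 of the 8 RFR libraries, with 0.0557 to 0.184. RFR 120 hpf replicate 3 weighed most, and without it the change was 0.149. The related genes ca15b and ca15c lie beside ca15a, so shared reads are possible.

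ca2, the cytosolic carbonic anhydrase, had 41.80, 36.96, 46.74 and 37.50 FPKM in RFR larvae, against 37.60, 42.75, 33.92 and 38.41 FPKM in control larvae. At 48 hpf RFR values were widely spread, at 47.03, 35.54, 29.03 and 56.57 FPKM, against 42.81, 47.96, 45.90 and 48.77 FPKM in controls. RFR replicate 3 was the lowest and RFR replicate 4 the highest of all 16 libraries, with every 48 hpf control between them. The RFR effect at 48 hpf was a log2 fold change of -0.18 (95% CI -0.508 to 0.141). Between the stages it was -0.01 after RFR and -0.28 in controls (adjusted p = 0.118), and the control value passed the threshold under median-ratio scaling (-0.40, adjusted p = 0.0319) and in a fit of the control libraries alone (adjusted p = 0.0120), with adjusted p-values up to 0.249 elsewhere. ca2 was 1.87 ± 0.162 times ca15a in RFR larvae and 1.74 ± 0.202 times in control larvae. At 48 hpf it was 2.33 ± 0.683 times after RFR and 2.55 ± 0.411 times in controls (SD, n = 4 each).

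trpv6 encodes the apical calcium channel through which Na,K-ATPase-rich ionocytes take up calcium. It had 3.55, 3.26, 4.59 and 3.98 FPKM in RFR larvae at 120 hpf, against 3.55, 4.08, 3.46 and 3.16 FPKM in control larvae. Values at 48 hpf were 0.88, 1.19, 1.30 and 1.60 FPKM after RFR and 1.62, 1.40, 1.15 and 1.68 FPKM in controls. RFR replicate 1 was the lowest of the 48 hpf libraries, but the groups overlapped. The stages did not overlap. trpv6 rose between stages by a log2 change of 1.32 (adjusted p = 4.12e-07) after RFR and 1.05 (adjusted p = 5.53e-06) in controls, and the difference between those changes was 0.27 ± 0.199 (SE, adjusted p = 0.850, limma). The RFR effect was 0.09 (95% CI -0.206 to 0.390) at 120 hpf and -0.18 (95% CI -0.477 to 0.119) at 48 hpf.

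The cotransporter cells were followed by slc12a10.2, their apical sodium-chloride cotransporter, and clcn2c, a basolateral chloride channel. slc12a10.2 had 4.76, 7.92, 7.25 and 2.54 FPKM in RFR larvae at 120 hpf, against 4.70, 3.61, 3.04 and 3.58 FPKM in control larvae. RFR replicates 2 and 3 lay far above every control, RFR replicate 1 just above the highest, and RFR replicate 4 below the lowest. The log2 fold change of 0.44 ± 0.278 (SE, 95% CI -0.151 to 1.03, unadjusted p = 0.134) had the largest spread of the 10 genes. It was 0.73 in replicates 1 to 3 alone and 0.29 without RFR replicate 3. Leaving out 1 library in turn gave 0.250 to 0.740. At 48 hpf slc12a10.2 had 0.63, 0.42, 1.14 and 0.45 FPKM after RFR and 1.13, 0.83, 0.53 and 0.51 FPKM in controls, which overlapped fully. slc12a10.2 rose between stages by a log2 change of 2.33 (adjusted p = 1.61e-06) after RFR and 1.77 (adjusted p = 3.17e-05) in controls. The difference between those rises was 0.56 ± 0.394 (adjusted p = 0.833).

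slc12a10.2 lies beside its copies slc12a10.1 and slc12a10.3, and the counting could split reads between them. slc12a10.3, looked at after its values were seen, had 1.80, 2.86, 3.54 and 1.73 FPKM in RFR larvae against 1.21, 1.99, 1.23 and 1.04 FPKM in control larvae. RFR replicates 2 and 3 were again the highest, and the groups overlapped through control replicate 2. Its log2 fold change was 0.65 ± 0.200 (unadjusted p = 0.00487, adjusted p = 0.909). slc12a10.1 lay at 0.35 to 0.92 FPKM in RFR larvae and 0.35 to 0.93 FPKM in control larvae, and was not tested because too few libraries reached the filter.

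clcn2c had 7.61, 8.93, 6.44 and 4.50 FPKM in RFR larvae at 120 hpf, against 7.52, 7.23, 5.78 and 5.27 FPKM in control larvae. In embryos at 48 hpf it had 1.39, 1.43, 1.99 and 0.69 FPKM after RFR and 1.30, 1.45, 0.87 and 1.06 FPKM in controls. RFR libraries held both the highest and the lowest value at each stage. clcn2c rose between stages by a log2 change of 1.98 (adjusted p = 6.37e-07) after RFR and 2.06 (adjusted p = 4.10e-07) in controls, the second largest rise after RFR and the largest in controls among the 10 genes. Its level was 1.35 ± 0.409 times that of slc12a10.2 in RFR larvae and 1.74 ± 0.249 times in control larvae. At 48 hpf it was 2.22 ± 0.837 times after RFR and 1.65 ± 0.384 times in controls (SD, n = 4 each), so the groups overlapped at both stages.

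atp1b1b encodes a beta subunit of the basolateral Na,K-ATPase, which drives the uptake through the apical channels. It had the highest mean of the 10 genes, with 92.44, 91.48, 87.38 and 86.49 FPKM in RFR larvae at 120 hpf and 97.62, 87.23, 82.59 and 79.44 FPKM in control larvae. The 48 hpf values were 27.54, 25.92, 25.99 and 22.59 FPKM after RFR and 30.95, 31.44, 20.89 and 22.51 FPKM in controls. At each stage the RFR libraries lay inside the range of the controls. atp1b1b rose between stages by a log2 change of 1.79 (adjusted p = 1.12e-09) after RFR and 1.71 (adjusted p = 1.91e-09) in controls, the smallest p-values of the 10 genes. The RFR effect was 0.05 (95% CI -0.199 to 0.295) at 120 hpf and -0.03 (95% CI -0.279 to 0.216) at 48 hpf.

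**Figure D2:**
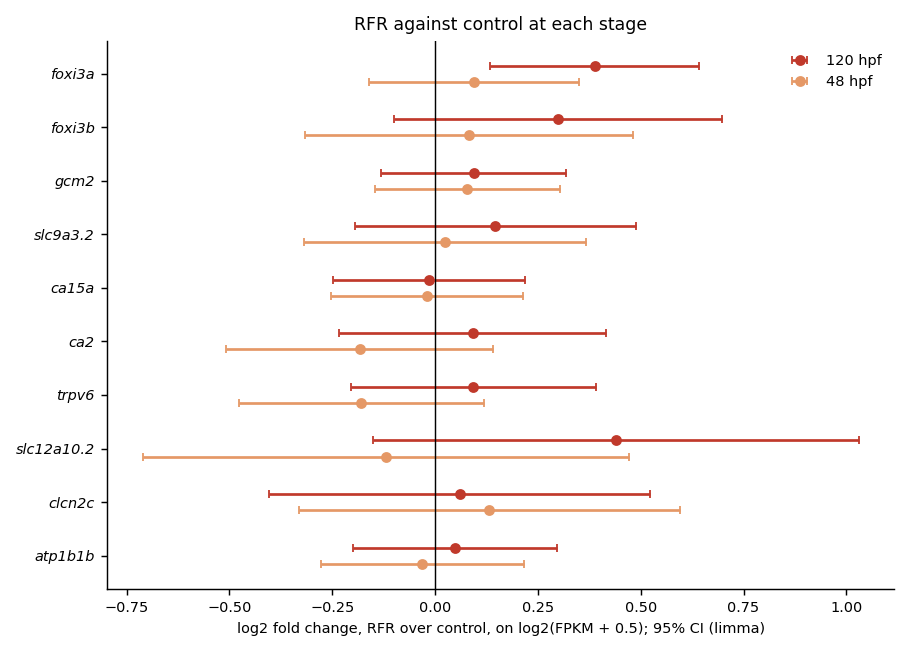
Log2 fold change of RFR over control on log2(FPKM + 0.5) (horizontal axis) for the 10 ionocyte genes at 120 and 48 hpf; points are limma estimates from 4 libraries per group and bars their unadjusted 95% confidence intervals. Only the interval of foxi3a at 120 hpf (0.133 to 0.643) leaves out 0, and its adjusted p is 0.909.

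Set side by side, 9 of 10 ionocyte genes had a positive log2 fold change under RFR at 120 hpf, ca15a being the exception at -0.01, and 48.9% of all tested genes were positive. The median of the 10 was 0.0932 there, against -0.00346 for all genes, and it lay between 0.0617 (without control replicate 4) and 0.181 (without RFR replicate 4) when 1 library was left out. The 24 keratinocyte genes, the other cells of the skin, had 18 positive values and a median of 0.0877 at the same stage. At 48 hpf 5 of 10 were positive, with 60.5% of all genes, and the medians were 0.00209 and 0.0426. Since all genes come from the same 16 libraries, these counts describe the libraries and are not independent trials. The summed FPKM of the 10 was 170 to 200.3 in RFR larvae and 162 to 190 in control larvae, and at 48 hpf 89.9 to 113 after RFR and 100.04 to 115 in controls.

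**Figure D3:**
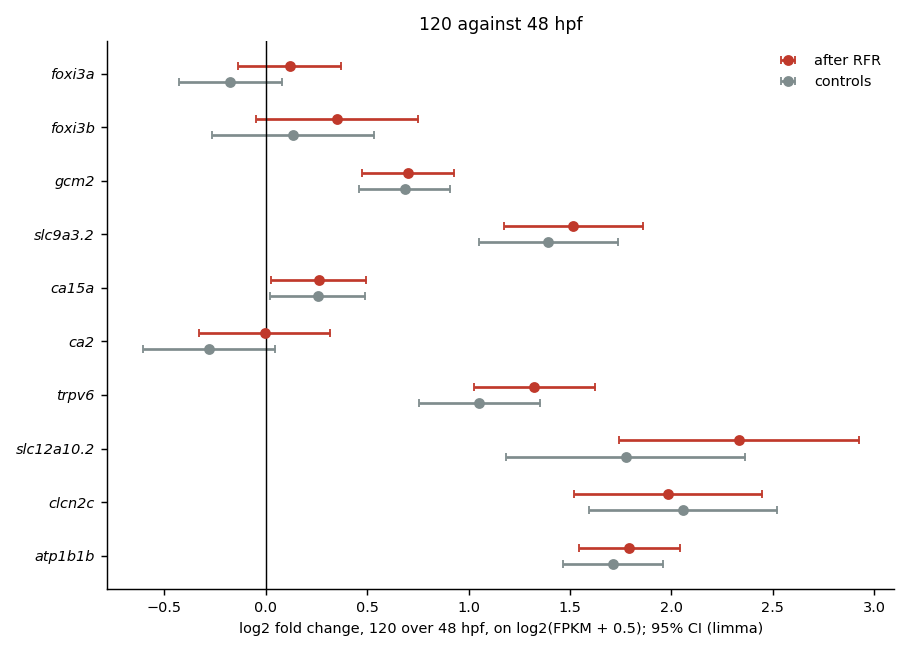
Log2 fold change of 120 over 48 hpf on log2(FPKM + 0.5) (horizontal axis) for the 10 ionocyte genes after RFR and in controls; points are limma estimates and bars their unadjusted 95% confidence intervals. The 6 genes that rose in both comparisons lie between 0.69 and 2.33, while foxi3a, foxi3b, ca15a and ca2 lie between -0.28 and 0.35.

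Genes of the ionocyte types were also set against foxi3b in each library. Per unit of foxi3b FPKM, slc12a10.2 was at 0.608 ± 0.234 in RFR larvae and 0.526 ± 0.150 in control larvae, against 0.0952 ± 0.0504 in RFR embryos and 0.121 ± 0.0716 in control embryos at 48 hpf (SD, n = 4 each). atp1b1b per foxi3b was 9.99 ± 1.18 in RFR larvae and 12.2 ± 2.91 in control larvae, against 3.68 ± 0.308 in RFR embryos and 4.16 ± 1.46 in control embryos. For both ratios the larval values lay above all embryonic ones. slc9a3.2 per foxi3b did likewise, at 0.218 ± 0.0623 in RFR larvae and 0.236 ± 0.0385 in control larvae. The ratio was 0.0501 ± 0.0169 in RFR embryos and 0.0507 ± 0.00735 in control embryos. Every slc9a3.2 value in embryos lay under 0.5 FPKM, so these embryonic ratios are uncertain. slc12a10.2, atp1b1b and slc9a3.2 stood apart between the stages by themselves, so their ratios are not a separate result. trpv6 per foxi3b was at 0.435 ± 0.110 in RFR larvae and 0.502 ± 0.115 in control larvae, against 0.183 ± 0.0571 in RFR embryos and 0.235 ± 0.0903 in control embryos, and the stages overlapped at their edges. gcm2 per foxi3b moved less, at 0.457 ± 0.0886 in RFR larvae and 0.527 ± 0.0848 in control larvae, against 0.334 ± 0.0473 in RFR embryos and 0.345 ± 0.124 in control embryos, and there the stages overlapped.

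With the group means removed, the 10 genes did not vary as 1 block across the 16 libraries. The pair that moved together most closely was slc12a10.2 with clcn2c (Pearson r = 0.739 on log2 values). Next came slc9a3.2 with slc12a10.2 (0.697) and clcn2c with atp1b1b (0.632). The closest pair is of the same cell type, but slc9a3.2 and slc12a10.2 are of different types. Among the transport genes of proton-secreting cells, r was 0.464 for slc9a3.2 with ca15a, 0.156 for ca15a with ca2 and 0.0384 for slc9a3.2 with ca2. The lowest of the 45 pairs was ca2 with clcn2c (-0.487). These correlations are descriptions, and technical differences between libraries, such as read depth, can enter them. Against the mean profile of the 10, the closest of 18280 other genes were snap29 (r = 0.886), rragcb (0.877), cdh26.1 (0.831), mych (0.822) and dusp6 (0.814). The 3 genes nearest each ionocyte gene had r of 0.764 to 0.936, and the closest single match was errfi1a with foxi3b. None of these nearest genes is in the ionocyte lists used here.

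Beyond these 10 genes, other transporters, pumps and enzymes of ionocytes gave 40 tested genes. As the RNA came from whole animals, their values cannot be assigned to ionocytes alone. For RFR 0 of the 40 were called at either stage. At 120 hpf, 28 of them had a positive log2 fold change, 7 had an unadjusted p under 0.05 (4.13% of all tested genes did), and their median was 0.121. In 1 gene, atp1b3b, every RFR library lay below every control, as in 1.22% of all genes. In 4 genes every RFR library lay above every control, as in 0.886% of all genes, and all 4 were kcnj1a copies, which encode ROMK potassium channels. In RNA of whole animals these 4 copies cannot be assigned to the potassium-secreting ionocytes. kcnj1a.6 had 3.71, 3.83, 3.27 and 3.96 FPKM in RFR larvae, against 2.44, 2.22, 1.25 and 1.16 FPKM in control larvae. Its log2 fold change was 0.93 ± 0.210 (SE, unadjusted p = 0.000417, adjusted p = 0.506, limma).

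kcnj1a.5 had 3.31, 4.82, 4.13 and 4.52 FPKM in RFR larvae and 2, 2.58, 2.36 and 1.32 FPKM in control larvae, a log2 fold change of 0.89 ± 0.211 (adjusted p = 0.522). kcnj1a.4 had 2.51, 4.38, 3.75 and 2.81 FPKM in RFR larvae and 1.80, 2.47, 0.59 and 1.03 FPKM in control larvae, 1.05 ± 0.278 (adjusted p = 0.729). kcnj1a.3, looked at after its values were seen, had 2.18, 3.11, 2.57 and 3.06 FPKM in RFR larvae and 0.86, 2.05, 1.24 and 1.15 FPKM in control larvae, 0.85 ± 0.264 (adjusted p = 0.909). In all 4 copies the lowest RFR library stood above the highest control, in kcnj1a.4 by a narrow gap. The copies are tandem duplicates that can share reads, so they are not 4 separate observations, and their single values are uncertain. The log2 fold changes in replicates 1 to 3 alone were 0.70 to 1.02.

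At 48 hpf the same kcnj1a copies had RFR log2 fold changes of -0.17 to 0.08. The difference between the RFR effects at 120 and 48 hpf had its smallest adjusted p, 0.583, for kcnj1a.4 (1.21 ± 0.393). Between stages, kcnj1a.4, kcnj1a.5 and kcnj1a.6 fell in controls (log2 changes of -0.81, -0.54 and -0.53, adjusted p = 0.0171, 0.0337 and 0.0353) and had values of 0.40, 0.34 and 0.32 after RFR (adjusted p = 0.215, 0.169 and 0.194). A call in controls and none after RFR does not by itself show a difference, and the test of that difference is the one above. kcnj1a.1 behaved otherwise: it rose between stages by 1.20 after RFR and 1.22 in controls (adjusted p = 3.34e-06 and 2.93e-06), with RFR effects of -0.07 at 120 hpf and -0.05 at 48 hpf.

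**Figure D4:**
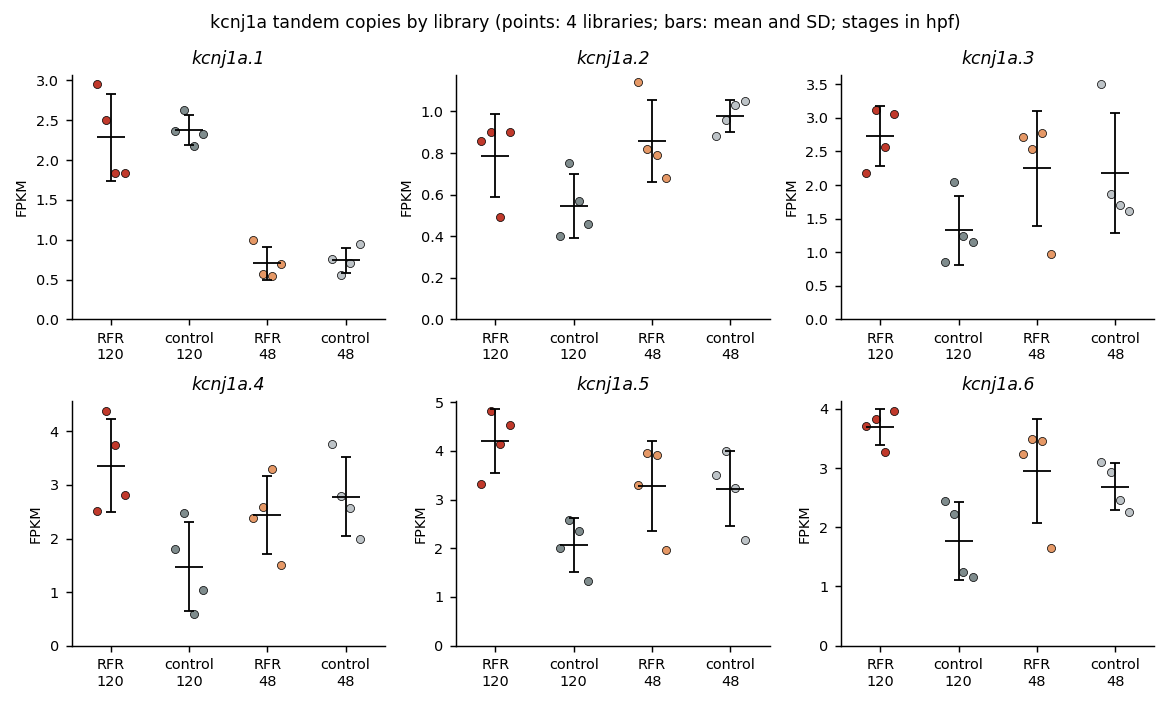
FPKM (vertical axis, from 0) of the 6 kcnj1a tandem copies in each library; points are the 4 libraries of a group, and bars give the mean and SD. For kcnj1a.3 to kcnj1a.6 all RFR libraries at 120 hpf lie above all 120 hpf controls, and at 48 hpf the groups overlap.

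Across the stages, 28 of the 40 rose and 1 fell after RFR, where 36.1% of all genes rose and 29.2% fell, and 26 rose and 6 fell in controls, where 38.3% rose and 27.9% fell. Under quantile normalization 25 rose and 2 fell after RFR, and 25 rose and 10 fell in controls. Which tissue these rises came from was not tested. Among the 40, rhcga, rhcgb, rhcgl1, slc26a3.1, slc26a3.2, slc26a6l, ca4b, asic4b and clcn2a reached 0.5 FPKM in no 48 hpf library. They passed the filter on low values only through 120 hpf libraries, so for them the filter itself favoured a rise. Of this list slc26a3.1 was listed at 0 in all 48 hpf libraries of both groups. rhcga, an ammonia channel, was at 57.2 ± 17.9 FPKM in RFR larvae and 0.175 ± 0.0473 in RFR embryos, and at 58.9 ± 13.1 FPKM in control larvae and 0.188 ± 0.160 in control embryos (SD, n = 4 each). slc26a3.2, an anion exchanger, was at 13.4 ± 2.61 FPKM in RFR larvae and 0.0525 ± 0.0330 in RFR embryos, and at 12.7 ± 2.12 FPKM in control larvae and 0.0225 ± 0.0263 in control embryos. Both were nearly silent at 48 hpf, and their rises (adjusted p = 2.03e-13 and 7.59e-14 after RFR, limma) carry the limit of the filter given above. atp1a1a.4, an alpha subunit of the Na,K-ATPase, was at 227 ± 28.3 FPKM in RFR larvae and 30.2 ± 3.45 in RFR embryos, and at 214 ± 25.99 FPKM in control larvae and 33.1 ± 4.21 in control embryos, a log2 change of 2.89 after RFR and 2.68 in controls. The 3 genes of this list with the smallest RFR p at 48 hpf were atp2b2, a calcium pump (log2 fold change 0.37, adjusted p = 0.377), atp1b3b, a Na,K-ATPase beta subunit (0.15, 0.399), and ca4a, a carbonic anhydrase (0.47, 0.455).

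The V-type ATPase acidifies organelles in every cell and is dense in proton-secreting ionocytes. Of its 22 tested subunit genes 0 were called for RFR at either stage. Without RFR 48 hpf replicate 1 there were 3 rises at 48 hpf, in atp6ap1a (adjusted p = 0.0336), atp6v0cb (adjusted p = 0.0351) and atp6v0a1b. That setting called 389 of all 23026 tested genes. The smallest RFR p at 48 hpf belonged to atp6v0cb (log2 fold change 0.32, adjusted p = 0.257), atp6ap1a (0.29, 0.326) and atp6v1e1b (0.18, 0.449), and at 120 hpf to atp6v1e1b (-0.10), atp6ap2 (0.10) and atp6v1c1a (-0.05), each with an adjusted p of 1. Between stages 12 rose and 2 fell after RFR, where 36.1% of all genes rose and 29.2% fell. In controls 14 rose and 1 fell, where 38.3% of all genes rose and 27.9% fell. atp6v0cb was at 119 ± 8.47 FPKM in RFR larvae and 63.9 ± 6.11 in RFR embryos, and at 125 ± 6.50 FPKM in control larvae and 51.1 ± 5.12 in control embryos. atp6ap1a and atp6v0a1b rose with it (log2 changes of 0.97 and 1.20 after RFR, 1.32 and 1.47 in controls).

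The specification list, holding Notch pathway, epidermal stem cell and transcription factor genes, ran the other way. Of 20 genes 2 rose and 14 fell between stages after RFR, where 36.1% of all genes rose and 29.2% fell. In controls 3 rose and 13 fell, where 38.3% of all genes rose and 27.9% fell. dld, a Notch ligand, was at 3.83 ± 0.199 FPKM in RFR larvae and 24.9 ± 9.24 in RFR embryos, and at 3.56 ± 0.294 FPKM in control larvae and 31.1 ± 3.91 in control embryos. notch1a fell by 2.13 after RFR and by 2.37 in controls on the log2 scale, and mib1, which activates Notch ligands, fell by 0.995 after RFR and 0.995 in controls. These genes also act in the brain and other tissues of the embryo, so in whole animals the fall cannot be assigned to skin. The few that rose were esrra and grhl1 in both comparisons and jag2a in controls. For RFR 0 of the 20 were called, and 1 when RFR 48 hpf replicate 1 was left out: dld, with a log2 fold change of -0.60 at 48 hpf (adjusted p = 0.0196). Without that library 389 of all 23026 tested genes were called at 48 hpf. klf4, an epithelial transcription factor, had 2.06, 2.03, 2.22 and 1.53 FPKM in RFR larvae. Control larvae had 1.41, 1.5, 1.05 and 1.47 FPKM (log2 fold change 0.40 ± 0.146, adjusted p = 1). All RFR libraries of klf4 lay above all controls, as in 0.886% of all genes. her6 (-0.15) and gata3 (-0.10) followed at 120 hpf, and gata3 (0.26), dld (-0.37) and notch1a (-0.35) led at 48 hpf, with adjusted p-values of 0.326 to 1.

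Hormones, receptors and local regulators of ionocytes gave 29 tested genes, of which 0 were called for RFR. In whole animals they too cannot be assigned to ionocytes alone. Between stages 17 rose and 4 fell after RFR, where 36.1% of all genes rose and 29.2% fell. In controls 15 rose and 3 fell, where 38.3% of all genes rose and 27.9% fell. Under quantile normalization 12 rose and 7 fell in each comparison. The median log2 change of all genes was then -0.133 after RFR and -0.139 in controls. In this list ednrab reached 0.5 FPKM in 48 hpf libraries only, so for it the filter favoured a fall. cyp24a1, the enzyme that breaks down active vitamin D, rose to 81.3 ± 19.2 FPKM in RFR larvae, against 1.02 ± 0.571 in RFR embryos, and to 56.9 ± 9.97 FPKM in control larvae, against 1.34 ± 0.421 in control embryos. Its RFR log2 fold change at 120 hpf was 0.49 ± 0.240 (adjusted p = 1). prlra, a prolactin receptor, rose by 2.29 after RFR and 2.12 in controls, and igfbp5b, an IGF-binding protein, by 0.54 and 0.67. prl, the prolactin hormone, had 2.42, 3.08, 9.99 and 2.95 FPKM in RFR larvae against 1.76, 2.31, 2.36 and 2.07 FPKM in control larvae. All RFR libraries of prl lay above all controls, the lowest by a narrow gap, as in 0.886% of all genes. Its RFR replicate 3 stood far above the others, and the log2 fold change was 0.75 ± 0.296 (adjusted p = 1), or 0.34 without that library. edn1 (0.51, adjusted p = 1) had the smallest p of this list at 120 hpf. At 48 hpf stc2a (-0.60), pth1b (-0.44) and stc2b (0.32) led, with adjusted p-values of 0.353 to 0.643. All RFR libraries of stc2b lay above all controls there, and 4.27% of all genes had separate groups in either direction.

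Markers of other cell types were read beside these results. The 24 keratinocyte genes summed to 19428, 18528, 8706 and 20040 FPKM in RFR larvae and 16890, 16055, 13352 and 16693 FPKM in control larvae, so RFR 120 hpf replicate 3 had the lowest sum of all libraries. Abundant keratins weigh most in this sum. In that library krt4 had 1859 and cyt1 1200 FPKM, against 3837 to 4452 and 4051 to 4513 FPKM in the other RFR larvae. Not all genes of the list were low there. cdh1 (34.31 FPKM) and anxa1a (198.28 FPKM) had their highest values of the 16 libraries in it. RFR 120 hpf replicate 3 also had the highest foxi3a, gcm2, slc9a3.2, ca15a and trpv6 of the 16 libraries. Without it the RFR log2 fold changes at 120 hpf were 0.35 for foxi3a, 0.01 for slc9a3.2, -0.13 for ca15a, 0.01 for trpv6 and 0.29 for slc12a10.2, with adjusted p-values of 0.783 to 0.999. The part of skin content in the results was not tested. For RFR 0 of 24 keratinocyte genes were called. cldnb, a claudin of the skin, came nearest at 120 hpf, with 42.08, 45.15, 40.63 and 43.54 FPKM in RFR larvae. Control larvae had 29.82, 35.84, 33.04 and 23.89 FPKM (log2 fold change 0.49 ± 0.103, adjusted p = 0.388). For cldnb and anxa1c all RFR libraries lay above all controls, as in 0.886% of all genes. anxa1c (0.30, adjusted p = 0.980) and krtt1c19e (-0.60, adjusted p = 1, but -0.04 without RFR replicate 3, which had 183 FPKM) followed, and at 48 hpf krt1-19d (0.54), krt18a.1 (-0.22) and krt1-c5 (0.20) led with adjusted p-values of 0.362 to 0.712. Between stages 6 keratinocyte genes rose and 8 fell after RFR, where 36.1% of all genes rose and 29.2% fell. In controls 6 rose and 13 fell, where 38.3% of all genes rose and 27.9% fell. There krt1-19d and krt92 rose by 4.45 and 3.25 and anxa1c fell by 0.985 on the log2 scale.

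The kidney tubule shares transport genes with ionocytes and cannot be separated from skin in whole animals. The 18 tubule markers summed to 228 to 282 FPKM in RFR larvae and 83.6 to 91.8 in RFR embryos, and to 234 to 256 FPKM in control larvae and 82.2 to 85.7 in control embryos. Within these sums the mean of pdzk1 alone went from 2.40 to 85.5 FPKM after RFR and from 2.91 to 82.3 FPKM in controls. Between stages 13 rose and 2 fell after RFR, where 36.1% of all genes rose and 29.2% fell. In controls 12 rose and 2 fell, where 38.3% of all genes rose and 27.9% fell. The rises in controls were led by pdzk1, slc4a4a and slc22a2 with log2 changes of 4.62, 1.77 and 2.50. Most tubule markers thus rose in the same libraries as the effector genes of ionocytes. The regulators pax2a and pax8 fell, from means of 22.65 to 8.93 and 10.755 to 3.905 FPKM after RFR. In controls their means went from 18.3575 to 9.185 and from 9.245 to 4.07 FPKM. The part of the tubule in the rise of the ionocyte genes was not tested. For RFR 0 of the 18 were called. The smallest p-values were those of slc12a3 (0.42), trpm7 (-0.15) and slc22a2 (0.17) at 120 hpf. At 48 hpf they were those of pax2a (0.30), hnf1ba (0.23) and pax8 (0.21). At 48 hpf all RFR libraries lay above all controls for pax2a and below them for clcnk. Such separate groups, in either direction, held for 4.27% of all genes. Glia also hold cytosolic carbonic anhydrase, but in whole animals the values of their markers cannot be assigned to glia alone. The 10 glial markers summed to 1199 to 1490 FPKM in RFR larvae and 1147 to 1321 in control larvae, and to 1091 to 1202 FPKM in RFR embryos and 1260 to 1449 in control embryos at 48 hpf. The lower sum of RFR embryos came from apoeb, at 592 to 737 FPKM in RFR embryos and 791 to 1006 in control embryos. The apoeb groups did not overlap, and 4.27% of all genes had separate groups in either direction. The other 9 markers summed to 438 to 499.9 FPKM in RFR embryos and 443 to 469 in control embryos, which overlapped. The part of glia in the ca2 values was not tested. For RFR 0 of the 10 were called, and only without RFR 48 hpf replicate 1 were rlbp1a and slc1a2b called at 48 hpf. That setting called 389 of all 23026 tested genes. At an unadjusted p under 0.05, 6 of the 10 passed at 48 hpf, with 9.47% of all genes. The smallest p-values were those of slc1a2b (0.29), rlbp1a (0.63) and apoeb (-0.41) at 48 hpf and glulb (0.17), aqp1a.1 (0.08) and slc1a2b (-0.09) at 120 hpf. Between stages 5 rose and 4 fell after RFR, and 5 rose and 2 fell in controls. The shares of all genes were those given above for the tubule markers. In controls the rises were led by rlbp1b, glula and slc1a2b (3.47, 1.59 and 0.88).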

How the data were processed

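The labels name a DNBseq-G50 for sequencing total RNA of whole zebrafish. The authors deposited FPKM values with 2 decimals for 32513 rows, per the file headers. Build GRCz11 and the tools Bowtie2, HISAT2 and DESeq2 appear in the submitters' processing notes, without versions or roles. The program behind the FPKM was not given in the sources used here. Quality summaries deposited by the authors give counts of reads and of detected genes, and values in percent for mapping, rRNA and filtering, per the file headers.

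Because FPKM cannot be treated as counts, limma 3.58.1 in R 4.3.3 was fitted to log2(FPKM + 0.5) with a mean-variance trend, on 23026 genes that reached 0.5 FPKM in 4 or more libraries. One fit of 4 group means held all 16 libraries, with 12 residual degrees of freedom, and p-values were two-sided and adjusted over all genes tested. On this scale, changes of low genes come out too small. The script was tested on simulated data. The 95% confidence interval of an RFR effect spanned 0.306 log2 units on each side of the estimate, as a median over genes.

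The 10 genes and the lists were chosen with earlier results of these data known. Of 170 list entries besides them, 165 matched by symbol, 3 by current symbol and 1 by synonym in NCBI gene tables (assembly GRCz12tu, used for names and neighbours), and 1 stayed unmatched. The rule named all 10 genes, the 3 genes of each list with the smallest p in each RFR comparison and between stages in controls, and the nearest genes by correlation. slc12a10.3, kcnj1a.1, kcnj1a.3, slc26a3.1 and clcnk were named after their values were seen. So were the other list genes named for the filter and the genes listed as exceptions to a list's direction. Alternatives changed the pseudocount, filter, scaling, variance model and samples, added terms for the replicate number, and left out each library in turn. Genes of the other lists were put through them as an addition made after seeing the data.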

Additional observations from a re-analysis of the deposited data

Results flagged for a closer look

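In 40 sets of 4 libraries (10 ionocyte genes in 4 groups), 2 held a library far from its group, and chance flags about 1 in 20 groups. foxi3b was 8.2 FPKM in RFR 48 hpf replicate 1, against 6.50 to 6.69 FPKM in the other 3 libraries of that group. ca15a was 21.83 FPKM in control 48 hpf replicate 1, against 16.89 to 17.68 FPKM in the other 3.

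Among 32 summed lists, 2 held such a library. The specification list summed to 408.94 FPKM in RFR 48 hpf replicate 1, against 320 to 333 FPKM in the other 3 libraries. The keratinocyte list summed to 8706.08 FPKM in RFR 120 hpf replicate 3, against 18528 to 20040 FPKM in the other 3.

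atp1b3b, a beta subunit of the Na,K-ATPase, had RFR log2 fold changes of opposite sign at the 2 stages, neither past the threshold. It had 105.08, 97.62, 104.19 and 104.16 FPKM in RFR larvae against 109.36, 110.65, 116.08 and 113.48 FPKM in control larvae, and 80.56, 83.59, 86.81 and 79.90 FPKM in RFR embryos against 70.41, 78.65, 70.50 and 79.10 FPKM in control embryos. All RFR libraries lay below all controls at 120 hpf, as in 1.22% of all genes, and above them at 48 hpf, there by a narrow gap. At 48 hpf 4.27% of all genes had separate groups in either direction. atp1b3b was picked because its groups stood apart in opposite directions, and that choice favours a small unadjusted p for the difference. The share of all genes with such opposite groups is not given here. The difference between the effects was -0.277147 on the log2 scale (SE 0.0813, unadjusted p = 0.00363, adjusted p = 0.583, limma), so it did not pass the threshold, and it lay between -0.324 and -0.226 under the other settings with adjusted p-values of 0.215 to 0.892.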

How the results depend on the processing

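The count of ionocyte genes called was 0 for RFR at either stage and for the difference between its effects under every setting run. Between stages it was 6 or 7 after RFR, all rises, and 6 to 8 in controls. The calls in controls were 6 to 7 rises and 0 to 2 falls, the falls being in foxi3a and ca2. Leaving out 1 library in turn gave 6 to 7 calls in both comparisons between stages. Over all genes, RFR at 48 hpf called 3 genes with a pseudocount of 0.1, 2 without a filter, 0 with a filter of 1 FPKM, 8 with array weights, 0 with only the groups compared, and 1 to 389 without 1 library, 389 being without RFR 48 hpf replicate 1. RFR at 120 hpf called 4 genes without a filter. The difference called 1 with a pseudocount of 0.1, with quantile normalization and with replicates 1 to 3, and 0 to 1 without 1 library.

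Same-numbered libraries were not treated as pairs. At 120 hpf the deviations of RFR and control libraries of the same number correlated at 0.058 to 0.28 and at 48 hpf at -0.11 to 0.31. The control library closest to an RFR library carried its number for replicates 1, 3 and 4 at 120 hpf. At 48 hpf this held for replicates 3 and 4. With the replicate block 1 gene was called for RFR at 120 hpf (0 without it), and ca15a passed the threshold in controls (adjusted p = 0.0465). Every replicate 4 correlated positively with the others, at 0.164 to 0.308.

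Signs turned only for log2 changes that passed no threshold before or after, and their cause was not tested. With quantile normalization these were gcm2 (-0.0021) and slc9a3.2 (-0.0405) for RFR at 48 hpf, clcn2c (0.0281) in the difference, foxi3b (-0.0155) between stages in controls, and foxi3a (-0.131) and ca2 (0.0697) after RFR. Median-ratio scaling turned slc9a3.2 at 48 hpf (-0.00199). Array weights turned slc9a3.2 at 48 hpf (-0.0283), ca15a in the difference (-0.0248) and ca2 between stages after RFR (0.0280). Replicates 1 to 3 turned ca15a at 120 hpf (0.0188), gcm2 in the difference (-0.00282) and ca2 between stages after RFR (0.188). Leaving out 1 library gave these ranges for RFR at 48 hpf: slc9a3.2 -0.0468 to 0.101, foxi3b -0.0395 to 0.227, ca15a -0.0591 to 0.0611, slc12a10.2 -0.299 to 0.0178, clcn2c -0.0208 to 0.334 and atp1b1b -0.135 to 0.0580. For RFR at 120 hpf they were ca15a -0.128 to 0.0602 and clcn2c -0.0712 to 0.234. For the difference they were clcn2c -0.274 to 0.102, gcm2 -0.0619 to 0.0715, ca15a -0.107 to 0.0807, slc9a3.2 -0.0148 to 0.213 and atp1b1b -0.00984 to 0.183. For the stages after RFR it was ca2, -0.166 to 0.151.

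Between stages, foxi3b after RFR passed the threshold in a fit of the RFR libraries alone (adjusted p = 0.0270), and ca15a in controls did so under 9 settings (adjusted p = 0.0142 to 0.0492). The upper ends of the RFR intervals at 120 hpf ran from 0.219 for ca15a to 1.03 for slc12a10.2. Genes near the filter, slc9a3.2 above all, are limited by values deposited with 2 decimals.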
